A study of Rattus norvegicus with 372 samples.

Results

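The aryl hydrocarbon receptor (AhR) target genes described here were 6 genes, namely Cyp1a1, Cyp1a2, Cyp1b1, Tiparp, Ahrr and the gene of the receptor itself, Ahr. They were chosen by name from the 20946 genes of the rat whole transcriptome (WT) assay, where each was measured by 1 probe, and 5 of them passed the filter on low counts with 10191 genes in all. Expression was measured by TempO-Seq, in which adjacent probe oligos are joined on the RNA, and the joined probes are amplified and sequenced. The cells were hepatocytes freshly isolated from male Wistar rats of 250 to 300 g and kept in collagen sandwich on 96-well plates, in William's medium E with 100 nM dexamethasone, EGF and insulin. They were treated for 24 h in medium with 0.5% DMSO, and the controls were vehicle wells and wells labelled media, whose labels do not say whether DMSO was present. The treatments were acetaminophen (400 and 10000 µM), caffeine (400 and 10000 µM), chloramphenicol (18 and 450 µM), diclofenac (16 and 400 µM), doxorubicin (0.08 and 2 µM), indomethacin (12 and 300 µM), isoniazid (400 and 10000 µM), ketoconazole (0.6 and 15 µM), naproxen (80 and 2000 µM), ranitidine (160 and 4000 µM), simvastatin (2.4 and 60 µM), sulfasalazine (4 and 100 µM), valproic acid (400 and 10000 µM) and WY14643 (8 and 200 µM). Each of the 2 batches used the cells of 1 rat, with 3 wells per treatment. Batch 1 had 3 vehicle and 3 media wells, and batch 2 had 6 of each.

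AhR is a transcription factor of the cytoplasm, where it is held with heat shock protein 90 and co-chaperones. When a ligand binds, it enters the nucleus, pairs with Arnt and binds DNA at elements with the core GCGTG. Cyp1a1, Cyp1a2 and Cyp1b1 encode cytochrome P450 enzymes that oxidise aromatic compounds and are the best known targets, and Cyp1a2 is abundant in liver. Tiparp, an ADP-ribosyltransferase, and Ahrr, a repressor that competes for Arnt, are targets that dampen the receptor.

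A well held between 2289425 and 8975207 reads in the WT assay, and between 558190 and 2210264 in the smaller surrogate (ST) assay run on the same lysates. The hepatocyte markers Alb, Ttr, Apoa1, Tat and Hnf4a were read in every well, with a summed level of 27443 to 36353 CPM (reads of a gene scaled by the total of the well) over the vehicle wells. Summed markers of Kupffer cells and leukocytes reached 20.2 to 40.6 CPM in vehicle wells, those of endothelial cells 1.7 to 3.8 CPM and those of stellate cells and fibroblasts 0.4 to 2.9 CPM, where Col1a1 was at 0 in all vehicle wells of batch 2. Wells of a batch are technical replicates of 1 rat, so p-values over wells measure the spread between wells, and the calls of the 5 tested genes were also tested with the wells of a rat added, which leaves the rats as replicates. The test of the ratio of Cyp1a1 to Cyp1a2, the call of Ahrr and the tests between batches rest on wells only. So do the calls of genes outside the members, except where a value with the wells of a rat added is given. In bulk lysates, fewer cells of a type and less RNA per cell cannot be told apart. For 6 of the 14 chemicals (acetaminophen, chloramphenicol, indomethacin, ketoconazole, sulfasalazine and WY14643), the wells of batch 1 lay on a plate with no vehicle wells, so plate and treatment cannot be told apart there.

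Across the 145 tests of 5 genes against vehicle in 29 comparisons, 57 were called by edgeR's quasi-likelihood test at an adjusted p under 0.05, with 38 calls higher and 19 lower. This was 39.3% of the members' tests, beside 29.6% of all tests over the 10191 genes. The batches had the same sign in 55 of the 57 calls, and 32 calls were also made with the wells of a rat added. These 32 are 22.1% of the members' tests, near the 19.7% of all tests that were called in the same way, so the count says nothing particular about the members. Cyp1a1 and Cyp1a2 moved both ways, Tiparp was called in 9 comparisons, each higher, and Ahr was called lower in 7 and higher in 4. Cyp1b1 made up 7 of the 38 higher calls and 6 of the 32 calls made with the wells of a rat added. But it passed the filter only through groups in which it was high, and its low level in vehicle left little room for a lower call. All 5 tested genes were called in indomethacin at 300 µM, each of them higher, where 54.7% of all genes tested were called. With the wells of a rat added, 2 of these 5 calls were made, beside 39.8% of all genes. Isoniazid at 10000 µM had 4 calls, each higher (34.7% of all genes), and ketoconazole at 15 µM had 4 calls, each higher (51.3%). With the wells of a rat added, 4 of these calls were made in isoniazid (18.2% of all genes) and 2 in ketoconazole (35.9%). The counts of these treatments and of indomethacin include Cyp1b1. Acetaminophen at 10000 µM (78.9% of all genes), caffeine at 10000 µM (66.2%), ranitidine at 4000 µM (66.2%) and WY14643 at 8 µM (56.2%) had 4 calls each in mixed directions. The share of all genes called was 71.7% for diclofenac at 400 µM, 66.7% for valproic acid at 10000 µM, 53.8% for naproxen at 2000 µM, 51.3% for WY14643 at 200 µM, 41.0% for sulfasalazine at 100 µM, 33.3% for chloramphenicol at 450 µM and 19.4% for doxorubicin at 2 µM, so a call of a member in those comparisons is set against a background of many calls. Among the lower concentrations with a call of a member, that share was 29.1% for valproic acid at 400 µM, 17.4% for sulfasalazine at 4 µM, 16.0% for naproxen at 80 µM, 5.87% for indomethacin at 12 µM, 1.62% for ketoconazole at 0.6 µM and 0.0196% for isoniazid at 400 µM, and it was 12.6% for media. No member was called in 8 comparisons, namely acetaminophen at 400 µM (1.38%), caffeine at 400 µM (0.118%), chloramphenicol at 18 µM (0.0883%), diclofenac at 16 µM (0.137%), doxorubicin at 0.08 µM (1.32%), ranitidine at 160 µM (0.0589%) and simvastatin at 2.4 µM (2.40%) and 60 µM (23.9%). Of the tests of the 5 genes in these 8 comparisons, 6 had an unadjusted p under 0.05. The share of all genes at that unadjusted limit is not given, so this count has no background beside it.

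**Figure D1:**
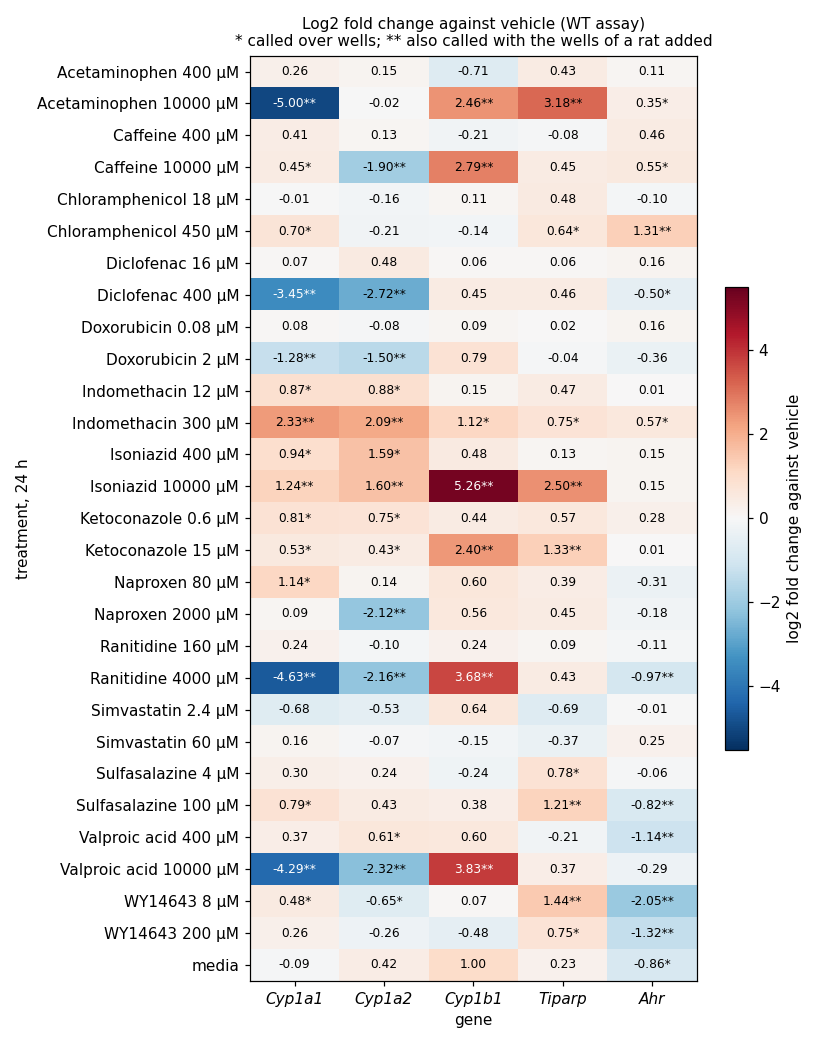
Log2 fold change against vehicle of the 5 tested genes (columns) in the 29 comparisons (rows), from the fit of both batches. 1 asterisk marks a call over wells and 2 asterisks a call that was also made with the wells of a rat added. Cyp1a1 ranges from -5.00 to 2.33, and the largest value is 5.26 for Cyp1b1 in isoniazid at 10000 µM.

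Of the 5 members listed, promoters are printed for the 3 whose 250 bases before the RefSeq start hold the AhR core element, to show its place. The sequences are RefSeq's on build GRCr8, read 5′ to 3′ on the gene's strand, and the capitals mark GCGTG or its reverse complement CACGC. Such a match on either strand is held by 25.9% of the 33469 promoters of that length, and at least 3 matches by 2.58%. The Cyp1b1 promoter (chr6:21094315-21094564, + strand) holds 2 matches, beginning 81 and 20 bases before the start, that of Tiparp (chr2:152063519-152063768, + strand) holds 1, beginning 136 bases before it, and that of Ahrr (chr1:30821969-30822218, + strand) holds 3, beginning 142, 117 and 57 bases before it.
Cyp1b1: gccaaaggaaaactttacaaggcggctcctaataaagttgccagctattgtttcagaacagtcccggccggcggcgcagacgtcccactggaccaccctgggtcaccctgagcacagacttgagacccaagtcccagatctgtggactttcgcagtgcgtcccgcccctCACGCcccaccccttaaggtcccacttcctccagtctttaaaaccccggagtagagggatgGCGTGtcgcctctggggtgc
Tiparp: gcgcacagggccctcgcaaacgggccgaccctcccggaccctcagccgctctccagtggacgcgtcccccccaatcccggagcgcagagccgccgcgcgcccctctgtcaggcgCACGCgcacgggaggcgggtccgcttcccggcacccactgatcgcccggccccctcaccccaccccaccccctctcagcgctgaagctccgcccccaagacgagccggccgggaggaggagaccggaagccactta
Ahrr: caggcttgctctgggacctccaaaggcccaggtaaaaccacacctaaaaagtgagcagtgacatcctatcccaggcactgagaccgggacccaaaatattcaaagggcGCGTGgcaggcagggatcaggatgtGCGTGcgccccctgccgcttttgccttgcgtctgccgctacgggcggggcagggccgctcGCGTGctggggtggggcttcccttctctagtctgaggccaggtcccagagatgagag
The windows of Cyp1a2 and Ahr hold no match to these letters. A match is a description of the letters and was not tested for binding.

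Cyp1a1 fell to a mean of 3.33 CPM or less in 4 treatments and was highest in indomethacin at 300 µM. Vehicle wells held 35.8, 35.9 and 27.0 CPM in batch 1 and from 28.2 to 43.4 CPM (median 35.7, 6 wells) in batch 2. The wells of the batches overlapped. In acetaminophen at 10000 µM, the wells held 0, 0.615 and 0.604 CPM in batch 1 and 0.916, 1.30 and 0.788 CPM in batch 2. All 6 treated wells lay far below the lowest vehicle well, and the log2 fold change was -5.00 ± 0.35 (SE, edgeR adjusted p = 1.48e-29, 6 against 9 wells). With so few reads left, its size depends on the prior count. Of the 5 hepatocyte markers, Hnf4a (log2 fold change -2.85) and Tat (-2.11) had their lowest values in this treatment, while Alb, Ttr and Apoa1 had theirs in diclofenac at 400 µM. The part of these markers in the result was not tested. In ranitidine at 4000 µM, the wells held 1.95, 0.355 and 2.34 CPM in batch 1 and 1.89, 0.598 and 0.573 CPM in batch 2. This was a fall by 4.63 ± 0.32 on the log2 scale (SE, edgeR adjusted p = 7.0e-30). With valproic acid at 10000 µM, batch 1 held 2.53, 3.72 and 2.74 CPM and batch 2 held 0.534, 1.34 and 1.75 CPM, with a log2 fold change of -4.29 ± 0.30 (SE, edgeR adjusted p = 4.42e-29). Neither group overlapped vehicle. Cyp1a1 was also lower in diclofenac at 400 µM (log2 fold change -3.45) and doxorubicin at 2 µM (-1.28), and all 5 falls held with the wells of a rat added, where the highest adjusted p by edgeR was 0.042 (doxorubicin).

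Cyp1a1 was called higher in 11 comparisons, with log2 fold changes from 0.45 to 2.33, of which 5 were at the lower concentration. Its level was highest in indomethacin at 300 µM, with 189, 168 and 135 CPM in batch 1 and 106, 155 and 109 CPM in batch 2, all above every vehicle well. Isoniazid at 10000 µM came next with batch means of 85.8 ± 11.7 and 71.6 ± 24.6 CPM (SD, n = 3 wells each). These were the only 2 of the 11 calls made with the wells of a rat added (edgeR adjusted p = 1.43e-05 and 0.0233). Of the others, naproxen at 80 µM (1.14), isoniazid at 400 µM (0.94), indomethacin at 12 µM (0.87) and ketoconazole at 0.6 µM (0.81) had the highest log2 fold changes over wells, with adjusted p by edgeR of 0.148, 1.00, 0.581 and 0.906 with the wells of a rat added. Ordered by the mean of the batch means, the 30 conditions ran from 144 CPM in indomethacin at 300 µM to 0.704 CPM in acetaminophen at 10000 µM, with vehicle 22nd at 34.0 CPM. Neighbours in that order were separated in both batches at only 3 of 29 steps, below indomethacin at 300 µM and on each side of doxorubicin at 2 µM (14.1 CPM), and no other neighbours were.

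Cyp1a2 was highest in indomethacin and isoniazid and fell in 7 treatments. Vehicle wells held 633, 619 and 454 CPM in batch 1 and from 540 to 749 CPM (median 685, 6 wells) in batch 2. In diclofenac at 400 µM, the wells fell to 59.3, 91.9 and 118 CPM in batch 1 and 160, 102 and 100 CPM in batch 2, with a log2 fold change of -2.72 ± 0.21 (SE, edgeR adjusted p = 1.34e-25). Hepatocyte markers were also lower in these wells, with sums of 5660 to 7666 CPM in batch 1 and 5850 to 7420 CPM in batch 2 against 27443 to 36353 CPM in vehicle, and all 5 of the list were called lower, among them, chosen after their values were seen, Apoa1 (log2 fold change -2.94), Ttr (-2.56) and Alb (-2.01), while their part in the result was not tested. The wells of valproic acid at 10000 µM held 136, 142 and 184 CPM in batch 1 and 157, 150 and 152 CPM in batch 2 (log2 fold change -2.32 ± 0.21, SE, edgeR adjusted p = 6.64e-21). Those of ranitidine at 4000 µM held 111, 109 and 121 CPM in batch 1 and 163, 165 and 139 CPM in batch 2 (-2.16 ± 0.20, SE, edgeR adjusted p = 4.57e-19). No treated well of these 3 groups reached the lowest vehicle well. Cyp1a2 also fell in naproxen at 2000 µM (-2.12), caffeine at 10000 µM (-1.90), doxorubicin at 2 µM (-1.50) and WY14643 at 8 µM (-0.65), and 6 of the 7 falls held with the wells of a rat added, the exception being WY14643 (edgeR adjusted p = 0.115).

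Cyp1a2 rose in 7 comparisons. The level was highest in indomethacin at 300 µM, with 2807 to 3679 CPM in batch 1 and 1120 to 1777 CPM in batch 2, and in isoniazid at 10000 µM, with 2158 to 3018 and 1146 to 1668 CPM. Wells of both groups lay above all vehicle wells, and the calls held with the wells of a rat added (edgeR adjusted p = 2.55e-06 and 0.000367). Isoniazid at 400 µM gave batch means of 2229 ± 252 and 1619 ± 126 CPM (SD, n = 3 wells each), a log2 fold change of 1.59 ± 0.19 (SE, edgeR adjusted p = 5.93e-11). These wells also lay above every vehicle well, while the adjusted p was 0.104 with the wells of a rat added. Of the remaining calls, with log2 fold changes from 0.43 (ketoconazole at 15 µM) to 0.88 (indomethacin at 12 µM), none held with the rats as replicates. In the order of levels, 3 of 29 steps were separated in both batches. They set apart indomethacin at 300 µM and both isoniazid concentrations (1924 to 2409 CPM as the mean of batch means) at the top, and doxorubicin at 2 µM with 5 lower groups (105 to 226 CPM) at the bottom. Vehicle was 15th at 616 CPM.

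**Figure D2:**
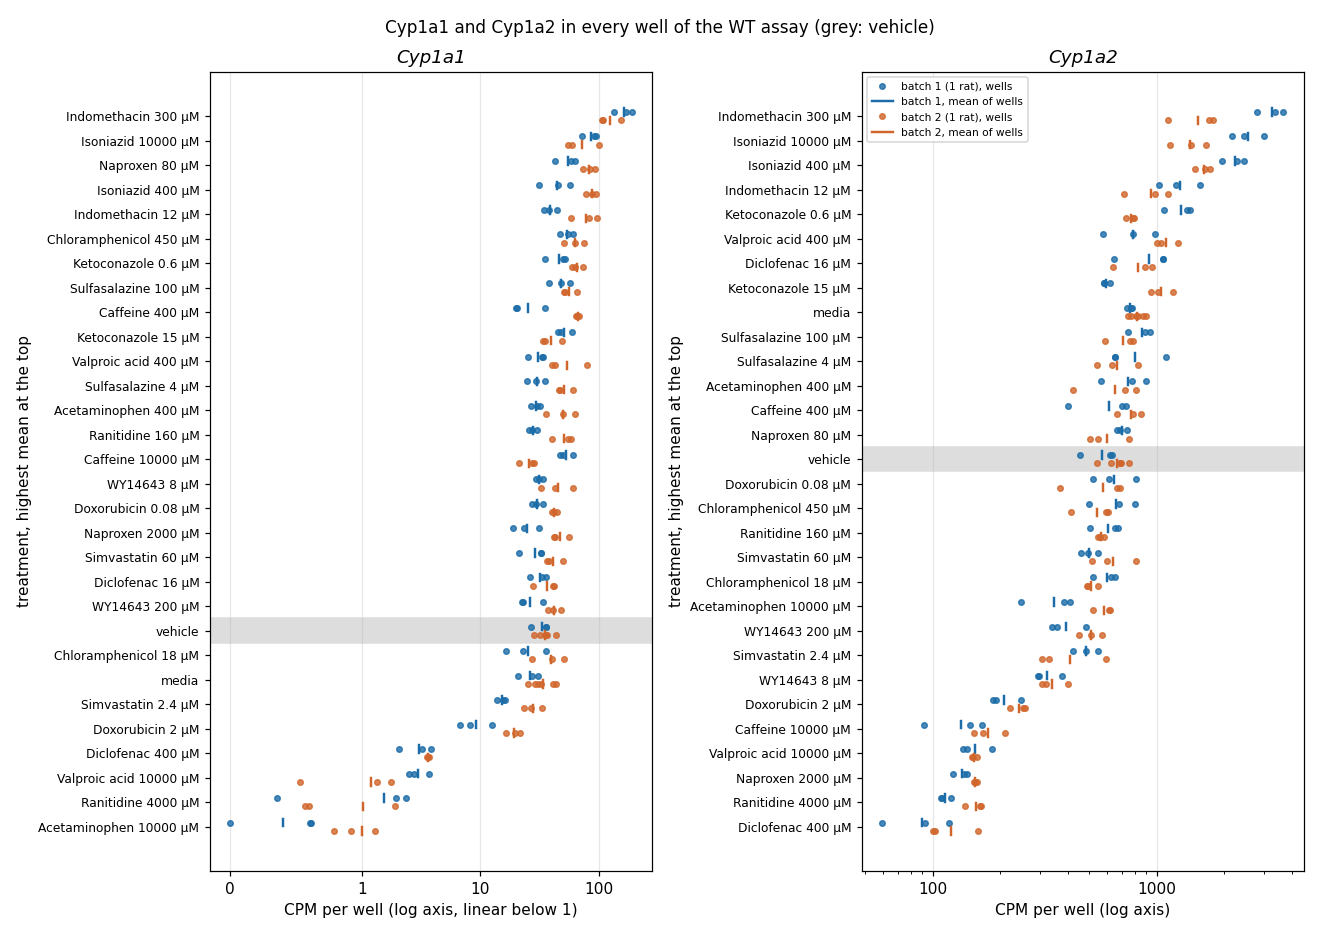
CPM of Cyp1a1 (left, log axis that is linear below 1) and Cyp1a2 (right, log axis) in every well, by treatment in descending order of the mean of the batch means, with short bars at the batch means and vehicle in grey. Indomethacin at 300 µM is at the top for both genes, and 4 groups of Cyp1a1 have a mean of 3.33 CPM or less.

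Isoniazid, an antibiotic against tuberculosis, gave few calls at 400 µM. Of 10191 genes, 2 were called, and they were Cyp1a1 and Cyp1a2, both higher. Cyp1a1 wells held 45.6, 31.3 and 57.0 CPM in batch 1, which overlapped vehicle, and 77.9, 94.7 and 87.5 CPM in batch 2, which did not (log2 fold change 0.94 ± 0.20, SE, edgeR adjusted p = 0.033). That call was lost in batch 1 alone, with the wells of a rat added, in the ST assay (edgeR adjusted p = 0.482) and when any of replicates 1, 2, 3, 5 or 6 was left out, with adjusted p up to 0.999. The call of Cyp1a2 was made in each batch alone, in the ST assay (1.55, edgeR adjusted p = 1.55e-13) and without each replicate, and among the alternatives tried it was lost only with the wells of a rat added. Between the isoniazid concentrations, where 31.4% of genes differed, Cyp1a2 differed by a log2 value of 0.0022 ± 0.20 and Cyp1a1 by 0.30 ± 0.22 (SE, edgeR adjusted p = 0.995 and 0.309). Tiparp was higher at 10000 than at 400 µM by 2.37 ± 0.26 (SE, edgeR adjusted p = 6.42e-14). The difference in Cyp1b1 was 4.78 ± 0.35 (SE), given as a description, since the gene passed the filter only through groups in which it was high. Cyp1b1 and Tiparp had no call at 400 µM, with log2 fold changes against vehicle of 0.48 and 0.13.

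The concentrations of other chemicals also differed in these genes. For indomethacin (43.0% of genes differed), Cyp1a1 was higher at 300 than at 12 µM by 1.46 ± 0.22 and Cyp1a2 by 1.21 ± 0.21 on the log2 scale (SE, edgeR adjusted p = 9.44e-09 and 2.82e-07). For naproxen (47.4%), both were lower at 2000 than at 80 µM, Cyp1a1 by -1.05 ± 0.22 and Cyp1a2 by -2.26 ± 0.22 (SE, edgeR adjusted p = 3.15e-05 and 2.63e-18). At 2000 µM, Cyp1a1 itself was near vehicle, with a log2 fold change of 0.089 ± 0.21 (SE, edgeR adjusted p = 0.742), whereas Cyp1a2 was not. For valproic acid (65.3%), Cyp1a1 and Cyp1a2 were lower at 10000 than at 400 µM by -4.66 ± 0.31 and -2.93 ± 0.22 (SE, edgeR adjusted p = 5.09e-31 and 3.16e-26), while Ahr was higher by 0.85 ± 0.18 (SE, edgeR adjusted p = 1.35e-05). The difference in Cyp1b1, again a description only, was 3.23 ± 0.36 (SE). Ahr was higher at 300 than at 12 µM of indomethacin by 0.56 ± 0.18 (SE, edgeR adjusted p = 0.00598), a call lost with the wells of a rat added (edgeR adjusted p = 0.114), with which the other differences between concentrations given for these 3 chemicals were also called.

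Cyp1a1 and Cyp1a2, which in the rat are neighbouring paralogs, did not move together in every treatment. Their ratio within a well was compared with vehicle wells of the same batch by an exact two-sided permutation test within batches, chosen after the data were seen, with p adjusted over the 29 comparisons and 0.000595 as the smallest p for a treatment. The log2 ratio of Cyp1a1 to Cyp1a2 reads was -4.11 in the vehicle wells of batch 1 and -4.24 in those of batch 2. It differed in 10 comparisons, 5 in each direction. Relative to Cyp1a2, Cyp1a1 was lower in acetaminophen at 10000 µM by -5.60 in batch 1 and -4.89 in batch 2, in ranitidine at 4000 µM by -2.34 and -3.14, and in valproic acid at 10000 µM by -1.54 and -2.81 (adjusted exact p = 0.00216 for each). It was higher in caffeine at 10000 µM by 2.79 and 1.45 and in naproxen at 2000 µM by 1.62 and 2.51 (adjusted exact p = 0.00216 for each). The other differences, in diclofenac at 400 µM, media, WY14643 at 8 µM, naproxen at 80 µM and chloramphenicol at 450 µM, lay between -0.74 and 1.02 as the mean of the batches. Of the 29 comparisons, 15 had opposite signs in the batches, and none of the 10 differences was among them. In 14 of the 15, batch 1 lay below batch 2, and all comparisons of a batch share its vehicle wells. In acetaminophen at 10000 µM, Cyp1a2 itself had a log2 fold change of -0.021 ± 0.19 (SE, edgeR adjusted p = 0.922). With total reads in place of TMM scaling, it was -0.44 and called (edgeR adjusted p = 0.0189), while a ratio within a well does not depend on scaling.

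**Figure D3:**
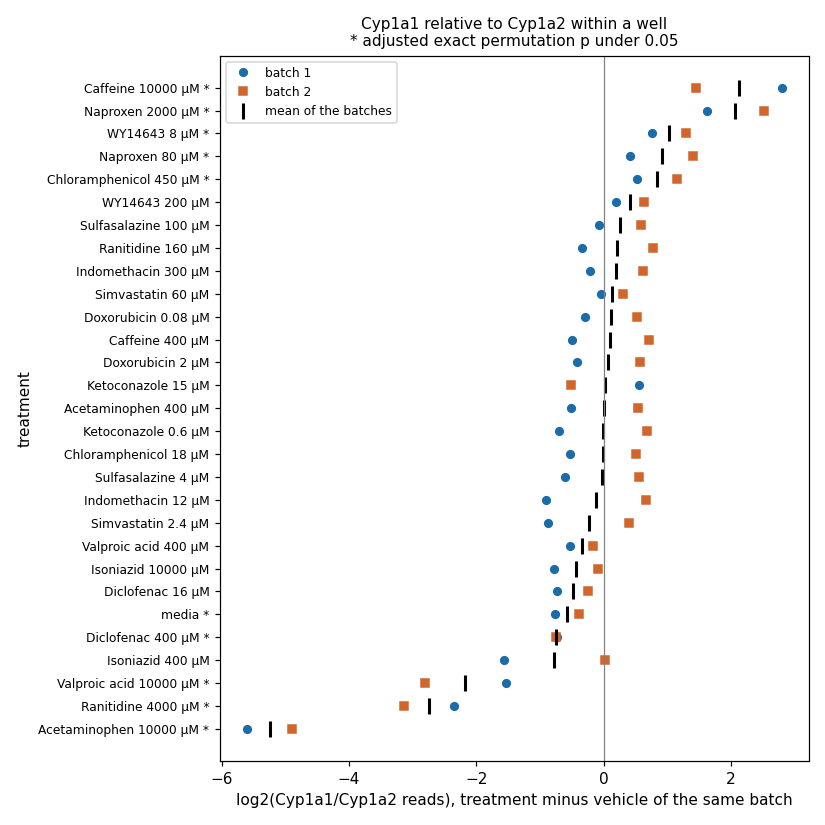
Difference from vehicle in the log2 ratio of Cyp1a1 to Cyp1a2 reads within a well, for batch 1 (circles), batch 2 (squares) and their mean (bars), by treatment. An asterisk marks an adjusted exact p under 0.05, and the values run from -5.25 in acetaminophen at 10000 µM to 2.12 in caffeine at 10000 µM.

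Cyp1b1 was near the detection limit in vehicle wells, with 12, 6 and 1 reads in batch 1 and 0 to 3 reads (8 in all over 6 wells) in batch 2. It passed the filter of a mean of 10 reads per well through the groups in which it was high, so its 7 calls, each higher, are no measure of how often it moved, and its values are given as a description, with no p. In isoniazid at 10000 µM, the wells held 152, 191 and 148 reads (23.9, 31.2 and 27.7 CPM) in batch 1 and 87, 99 and 87 reads (13.3, 14.3 and 12.1 CPM) in batch 2. The log2 fold change was 5.26 ± 0.33 (SE), and the CPM of the summed reads stood at 43.6 times that of vehicle, with a 95% exact interval of 29.7 to 66.6 that covers counting error only. The reads were summed over both batches, so this ratio was not taken within a batch, and the vehicle reads differed between the batches. Valproic acid at 10000 µM gave 77, 71 and 41 reads in batch 1 and 48, 39 and 49 in batch 2 (log2 fold change 3.83 ± 0.35, SE). Ranitidine at 4000 µM gave 92, 52 and 59 reads in batch 1 and 23, 30 and 23 in batch 2 (3.68 ± 0.35, SE). In these 3 groups every well lay above all vehicle wells of its batch. Caffeine at 10000 µM (2.79), acetaminophen at 10000 µM (2.46) and ketoconazole at 15 µM (2.40) followed. In acetaminophen at 10000 µM, batch 1 gave 18, 27 and 34 reads but batch 2 only 3, 2 and 2, so that the value of 2.46 rested on batch 1, and batch 2 alone gave 0.79, or 0.23 against the vehicle wells of the same plate. In the order of levels, from 20.4 to 0.285 CPM as the mean of batch means, 2 of 29 steps were separated in both batches, below isoniazid at 10000 µM and below ketoconazole at 15 µM, which was 6th. In indomethacin at 300 µM the log2 fold change was 1.12, and that call was lost with the wells of a rat added.

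Valproic acid and ranitidine at the higher concentrations thus had low Cyp1a1 and Cyp1a2 in wells where Cyp1b1 lay above vehicle, while in isoniazid at 10000 µM the wells of all 3 genes lay above vehicle. Cyp1b1 is expressed in stromal cells as well, and the markers of such cells were read beside it. In isoniazid at 10000 µM, endothelial markers (5 of 5 in the table) summed to 1.8 to 3.5 CPM and stellate and fibroblast markers (4 of 5 in the table) to 0.1 to 1.6 CPM, against 1.7 to 3.8 and 0.4 to 2.9 CPM in vehicle. In valproic acid at 10000 µM they summed to 0.3 to 0.8 and 0.5 to 1.1 CPM, and in ranitidine at 4000 µM to 0.2 to 1.2 and 0.0 to 0.9 CPM. No well of these groups exceeded the highest vehicle well of its batch in either sum. Des was at 0 in all isoniazid wells, while Col1a1 had 8 reads in the valproic acid wells of batch 2 against 0 in vehicle. Biliary markers (4 of 4 in the table) summed to 33.1 to 49.0 CPM in vehicle, 34.8 to 47.8 CPM in isoniazid, 49.6 to 74.2 CPM in valproic acid and 19.7 to 56.8 CPM in ranitidine, most of it from Epcam in vehicle. Sox9, another of these markers, rose in all 3 groups, with log2 fold changes of 1.61 in isoniazid, 2.72 in ranitidine and 1.01 in valproic acid (edgeR adjusted p = 3.59e-08, 1.87e-20 and 0.000319), and its wells held 6.79 to 19.2, 7.80 to 49.4 and 5.75 to 10.1 CPM against 1.73 to 5.28 CPM in vehicle. Epcam fell in ranitidine (-1.54, edgeR adjusted p = 1.86e-18). Single markers in these sentences were chosen after their values were seen. Markers of Kupffer cells and leukocytes (6 of 6 in the table) summed to 35.2 to 69.0 CPM in the isoniazid wells of batch 1, against 32.1 to 40.6 CPM in vehicle, and to 18.3 to 21.4 CPM in batch 2, against 20.2 to 30.6 CPM. In valproic acid and ranitidine they summed to 13.0 to 19.5 and 14.7 to 25.8 CPM. Clec4f, with mean vehicle levels of 17.2 CPM in batch 1 and 6.66 CPM in batch 2, was a large part of the vehicle sums. It was called lower in 11 comparisons and higher in 0, and its values in these 3 groups are not given. Within that list, Cd163 fell and Cd68 rose in each of the 3 groups, Cd163 by log2 fold changes of -0.83 in isoniazid, -4.53 in valproic acid and -2.56 in ranitidine (edgeR adjusted p = 0.00312, 7.15e-26 and 2.27e-15) and Cd68 by 0.60, 0.81 and 1.36 (edgeR adjusted p = 0.0236, 0.000455 and 4.56e-09), and both isoniazid calls were lost with the wells of a rat added (edgeR adjusted p = 0.147 and 0.133). The hepatocyte markers were lower than in vehicle, with sums of 19623 to 25107, 13938 to 19002 and 10303 to 15450 CPM in isoniazid, valproic acid and ranitidine, and the part of these markers in the result was not tested.

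Ahrr was barely detected. It had 61 reads over all WT wells and 0 reads in 148 of them, and it did not pass the filter. Isoniazid at 10000 µM was the only condition with a read in every well, with 4, 2 and 1 reads in batch 1 and 2, 5 and 4 in batch 2. These 18 reads compare with 43 reads over the other 180 wells of the assay, of which 1 was in the 9 vehicle wells. With the reads of both batches summed, the rate was 27.7 times that of vehicle. Its 95% exact interval of 4.38 to 1156 covers counting error only. Ketoconazole at 15 µM and sulfasalazine at 100 µM had 6 reads each, the most of any other condition. Without a filter on low counts, edgeR called Ahrr higher in isoniazid at 10000 µM (log2 fold change 3.64, adjusted p = 0.000327), and in the ST assay 5 of the 6 isoniazid wells had 1 read where no vehicle well had any.

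**Figure D4:**
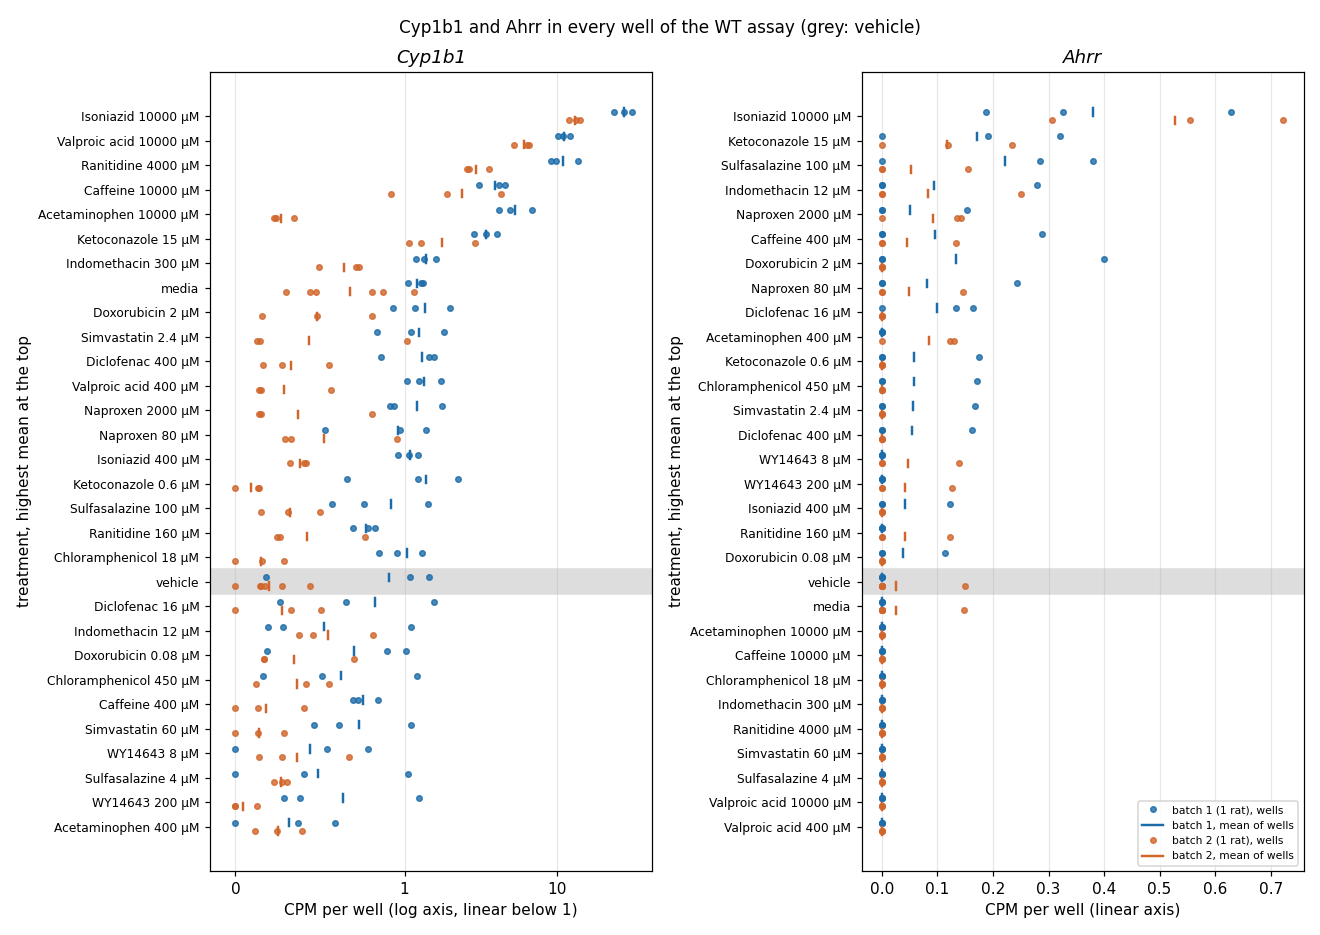
CPM of Cyp1b1 (left, log axis that is linear below 1) and Ahrr (right, linear axis) in every well, by treatment in descending order of the mean of the batch means, with vehicle in grey. Isoniazid at 10000 µM is at the top for both genes, with mean values of 20.4 and 0.454 CPM.

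Tiparp was called higher in 9 comparisons and lower in none. Vehicle wells held 4.48, 2.18 and 4.64 CPM in batch 1 and from 2.07 to 8.01 CPM (median 5.22, 6 wells) in batch 2. In acetaminophen at 10000 µM, the wells held 42.6, 25.2 and 29.8 CPM in batch 1 and 26.9, 18.8 and 34.1 CPM in batch 2, which was 9.06 times vehicle by the fit (log2 fold change 3.18 ± 0.23, SE, edgeR adjusted p = 1.56e-27). Isoniazid at 10000 µM gave 28.9, 27.6 and 13.5 CPM in batch 1 and 22.3, 37.2 and 25.9 CPM in batch 2 (5.66 times vehicle by the fit, edgeR adjusted p = 2.10e-18). The wells of both treatments stood above all vehicle wells and overlapped each other. WY14643 at 8 µM gave 6.38, 6.74 and 7.64 CPM in batch 1 and 12.5, 15.3 and 12.2 CPM in batch 2, above vehicle in each batch (1.44 ± 0.25, SE, edgeR adjusted p = 1.61e-07). Ketoconazole at 15 µM (1.33) and sulfasalazine at 100 µM (1.21) were the other calls that held with the wells of a rat added (edgeR adjusted p = 0.00144 and 0.00926). Calls in sulfasalazine at 4 µM (0.78), indomethacin at 300 µM (0.75), WY14643 at 200 µM (0.75) and chloramphenicol at 450 µM (0.64) did not, with edgeR adjusted p from 0.0782 to 0.305. Only 1 of 29 steps in the order of levels was separated in both batches, below the 2 highest groups (29.6 and 25.9 CPM as the mean of batch means). In acetaminophen at 10000 µM, then, Tiparp was raised in the same wells in which Cyp1a1 was at or near 0.

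Ahr was called lower in 7 comparisons and higher in 4. Vehicle wells held 80.9, 65.0 and 89.6 CPM in batch 1 and from 79.3 to 110 CPM (median 87.0, 6 wells) in batch 2. The lowest levels were those of WY14643, an agonist of the peroxisome proliferator-activated receptor alpha. At 8 µM, the wells held 16.5, 22.0 and 14.5 CPM in batch 1 and 16.8, 17.3 and 15.2 CPM in batch 2 (log2 fold change -2.05 ± 0.18, SE, edgeR adjusted p = 1.15e-20). At 200 µM they held 38.2, 35.8 and 27.7 CPM in batch 1 and 22.5, 27.7 and 23.5 CPM in batch 2 (-1.32 ± 0.17, SE, edgeR adjusted p = 1.32e-11). All wells lay below vehicle, and those of 8 µM lay below those of 200 µM in both batches. Between these concentrations, where 5.74% of genes differed, Ahr was higher at 200 µM by 0.73 ± 0.19 (SE, edgeR adjusted p = 0.00809), a call lost with the wells of a rat added (edgeR adjusted p = 0.313). Chloramphenicol at 450 µM raised the level to 201, 280 and 141 CPM in batch 1 and 267, 252 and 266 CPM in batch 2 (1.31 ± 0.16, SE, edgeR adjusted p = 2.49e-12), separated in both batches from the next group of the order, caffeine at 400 µM. Ahr also fell in valproic acid at 400 µM (-1.14), ranitidine at 4000 µM (-0.97) and sulfasalazine at 100 µM (-0.82), and these held with the wells of a rat added (edgeR adjusted p = 0.00614, 0.00634 and 0.0363). The fall in diclofenac at 400 µM (-0.50) and the rises in indomethacin at 300 µM (0.57), caffeine at 10000 µM (0.55) and acetaminophen at 10000 µM (0.35) did not, and the last turned to -0.064 with total reads in place of TMM scaling. In valproic acid, Ahr was lower at 400 µM, where Cyp1a2 was called higher (0.61), while at 10000 µM, where Cyp1a1 and Cyp1a2 were low, Ahr had a log2 fold change of -0.29 (edgeR adjusted p = 0.108).

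**Figure D5:**
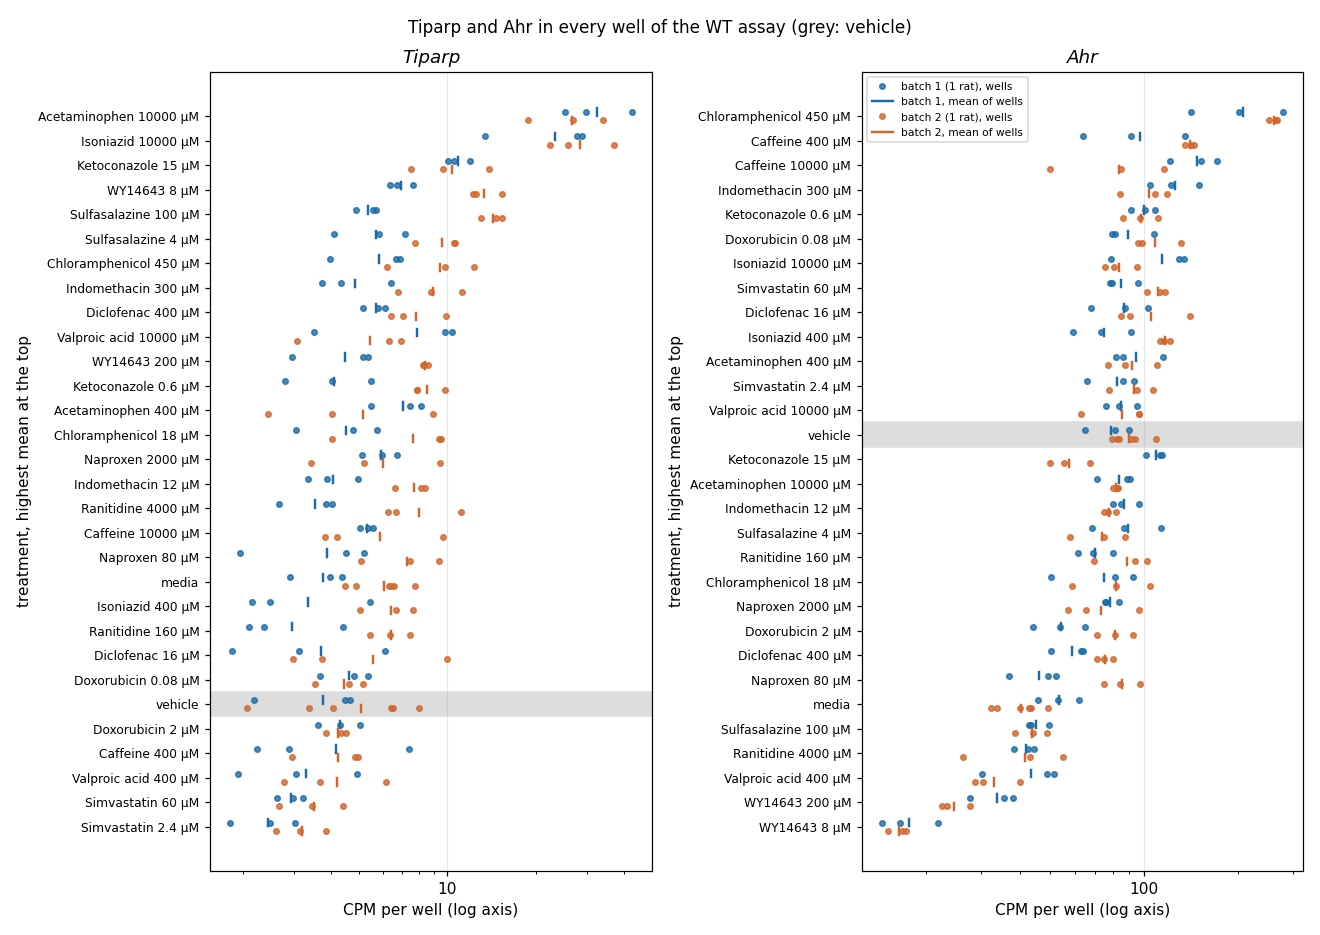
CPM of Tiparp (left) and Ahr (right) on log axes in every well, by treatment in descending order of the mean of the batch means, with vehicle in grey. Tiparp is highest in acetaminophen and isoniazid at 10000 µM (29.6 and 25.9 CPM), and Ahr is highest in chloramphenicol at 450 µM (235 CPM) and lowest in WY14643 at 8 µM.

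In the media wells, Ahr was the 1 member called. It stood at 45.8, 53.0 and 62.1 CPM in batch 1 and from 32.5 to 49.3 CPM (median 41.5, 6 wells) in batch 2, below all vehicle wells of the same batch (log2 fold change -0.86 ± 0.15, SE, edgeR adjusted p = 2.32e-06). The batches differed in size, -0.47 against -1.08, and the call was lost in batch 1 alone (edgeR adjusted p = 0.322) and with the wells of a rat added (edgeR adjusted p = 0.306). Cyp1a2 had a log2 fold change of 0.42 ± 0.17, Tiparp of 0.23 ± 0.24 and Cyp1a1 of -0.086 ± 0.19 (SE, edgeR adjusted p = 0.0856, 0.577 and 0.816). That of Cyp1b1 was 1.00 ± 0.43 (SE), given as a description only. Cyp1a2 wells ran from 740 to 775 CPM in batch 1 and 748 to 893 CPM in batch 2, above vehicle in batch 1 and overlapping it in batch 2.

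Among partners of the receptor, Arnt, Hsp90aa1 and Ptges3 are described here, Arnt2 did not pass the filter, and Hsp90ab1 was not analysed here. Hsp90aa1, which encodes an Hsp90 chaperone, was called higher in 10 comparisons and lower in 3, with log2 fold changes from -0.39 in valproic acid at 400 µM to 1.15 in acetaminophen at 10000 µM. Ptges3, the p23 co-chaperone, was called higher in 8 and lower in none, up to 1.66 in acetaminophen at 10000 µM. Arnt was called higher in 4 comparisons and lower in 3, with log2 fold changes from -0.59 in WY14643 at 8 µM to 1.02 in caffeine at 10000 µM. These counts are over wells, where 29.6% of the tests of all genes were called. Counts with the wells of a rat added are not given for these genes.

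Among the genes of the xenobiotic battery that AhR and Nfe2l2 share, Aldh3a1 and Nqo1 were called most often. Aldh3a1, an aldehyde dehydrogenase, was lower in 8 comparisons and higher in 9, with the lowest values in ranitidine at 4000 µM (-8.34), acetaminophen at 10000 µM (-6.54), diclofenac at 400 µM (-5.39) and valproic acid at 10000 µM (-4.66). Its wells in these 4 groups held at most 1.24 CPM, against 6.67 to 18.2 CPM in vehicle, so that the fitted values depend on the prior count, and these 4 treatments were the ones with the lowest Cyp1a1. In isoniazid at 10000 µM, Aldh3a1 was higher (1.73 ± 0.29, SE, edgeR adjusted p = 1.77e-07), and in indomethacin at 300 µM it was not called. Nqo1, a quinone reductase, was higher in 9 and lower in 7, with its highest value in acetaminophen at 10000 µM (2.78 ± 0.15, SE, edgeR adjusted p = 3.15e-41), where Cyp1a1 was lowest. Of the 5 tested battery genes, 3 were higher and 1 lower in isoniazid at 10000 µM, with a median of 0.59, and 3 were higher and 1 lower in indomethacin at 300 µM, with a median of 0.84, beside medians of 0.014 and 0.013 over all genes, of which 34.7% and 54.7% were called. These 5 were Aldh3a1, Nqo1, Gsta1, Gsta2 and Nfe2l2 itself. Gsta1 had its lowest log2 fold change of all comparisons in isoniazid at 10000 µM (-1.41) and its highest in indomethacin at 300 µM (1.66). In doxorubicin at 2 µM, where 19.4% of all genes were called, all 5 were higher, while Cyp1a1 and Cyp1a2 were lower. Of the further responsive genes, Cyp2s1, Scin and Serpinb2 did not pass the filter. Slc7a5, an amino acid transporter, was higher in 7 and lower in 6 comparisons, and Xdh, xanthine dehydrogenase, was higher in 2 and lower in 10. The counts of the battery and further genes are also over wells, beside 29.6% of the tests of all genes.

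For each tested member, the genes most like it were those with the highest Pearson's r of mean log2(CPM + 1) over the 30 conditions, taking the lower r of the batches. The points share libraries and controls, so these values are a description. Cyp1a1 was most like Glyatl1 (lower r = 0.85), Sult1b1 (0.83) and Echdc3 (0.83), and Cyp1a2 was 172nd in that list (0.66). On ranks (Spearman's rho), Cyp1a2 was the 3rd gene most like Cyp1a1 (lower rho = 0.64) and Glyatl1 the 552nd (0.33). Cyp1a2 was most like Tmem86b (0.77), RGD1564614 (0.76) and AABR07034632.1 (0.71). Cyp1b1 was most like Ccdc82 (0.77), Klc3 (0.75) and Lgmn (0.74), Tiparp like LOC103692785 (0.77), Rchy1 (0.77) and Lamp2 (0.76), and Ahr like Iws1 (0.70), Gnai1 (0.69) and Cdc23 (0.63). Of these, Klc3 was 958th, Lgmn 670th and Iws1 426th on ranks. Between members, Cyp1b1 and Tiparp had a lower r of 0.35, Cyp1a1 and Cyp1b1 of -0.32, and Cyp1a1 and Ahr of 0.15. By r, no pair of members was as alike as the genes named for either.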

How the data were processed

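The authors aligned TempO-Seq reads to the rat genome rn6 with STAR 2.5.3a, per the submitters' processing notes, and deposited raw read counts of each probe in each well, 1 file for each assay, not normalized. They hold 22253 probes in the WT assay and 2654 in the ST assay. Here, probe counts with the same symbol, read without regard to case, were added, and CPM was computed from a well's total. Groups came from the titles of the wells. Genes with a mean of at least 10 reads per well (10191) were tested in R 4.3.3 with edgeR 4.0.16 (quasi-likelihood F-test), with TMM normalization, all wells, condition and batch as terms and Benjamini-Hochberg adjustment within each comparison. A gene was called at an adjusted p under 0.05. Differences between batches were tested by interaction terms, adjusted over 295539 tests. The SE was derived from the log2 fold change and F statistic. The alternatives were DESeq2 1.42.0, other size factors, no filter, each batch alone, vehicle wells of the same plate, wells added per rat, the ST assay, an absolute log2 fold change of at least 1 and each replicate left out, with the trended dispersion kept. Ratios within a well used 0.5 reads as pseudocount (scipy 1.17.1), and patterns used 1 CPM. The scripts were tested on simulated data.

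The members and gene lists were chosen with earlier results of these data known. For each member, the 3 called comparisons with the largest absolute log2 fold change and 1 direction in both batches, and media, are described well by well, and other treatments named with values were chosen after their values were seen. Of each list, the 2 genes called most often are named with values, the rest by counts. A result of the list of receptor partners is not reported here. The ratio of Cyp1a1 to Cyp1a2 and the summed reads were added after the data were seen. Depth sets the precision: in the shallowest WT well, with 2289425 reads, 1 read is worth more than in the deepest, with 8975207, and intervals on reads cover counting error only.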

Additional observations from a re-analysis of the deposited data

Results flagged for a closer look

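Among 145 tests of a difference between the batches, 6 had an adjusted p under 0.05 by edgeR's interaction test and a difference of at least 1 on the log2 scale. Over all genes, 5377 of 295539 interaction tests had an adjusted p under 0.05, whatever the size of the difference. That count is not under the limit of at least 1 set for the members, so the 2 counts are not alike. The 6 results concern Ahr in caffeine at 10000 µM, with log2 fold changes of 1.10 in batch 1 and -0.044 in batch 2 (batch 2 minus batch 1 of -1.15, adjusted p = 0.00317), and Ahr in ketoconazole at 15 µM, with 0.56 and -0.58 (-1.15, adjusted p = 0.00342). Cyp1a1 differed in caffeine at 10000 µM, with 0.87 and -0.38 (-1.26, adjusted p = 0.012), and in caffeine at 400 µM in the other direction, with -0.39 and 0.91 (1.31, adjusted p = 0.00674). Cyp1a2 rose in both batches in indomethacin at 300 µM, by 2.77 and 1.29 (-1.47, adjusted p = 0.00165), and in isoniazid at 10000 µM, by 2.16 and 1.02 (-1.14, adjusted p = 0.0298). The batches were different rats, prepared and sequenced separately, which cannot be told apart, and for indomethacin and ketoconazole the batch 1 wells also lay on a plate with no vehicle wells.

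In the groups of 6 wells, 12 groups of a gene and control were examined for a well that lay far from the others. The limit used marks about 1 in 20 groups of normally distributed values by chance, a rate that does not hold for Ahrr, where most wells were at 0 and any single read is marked. Ahrr was marked in both controls, with 0.150 CPM in 1 vehicle well of batch 2 and 0.148 CPM in 1 media well of batch 2. Each is 1 read, where the other 5 wells had none.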

How the results depend on the processing

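Of the 57 calls against vehicle, 30 were made in the same direction under all alternatives that refit the data and gave a value (the limit on the log2 fold change, which refits nothing, is given apart), DESeq2 kept all 57 and RLE size factors kept 56. With the wells of a rat added, 32 of the 57 calls were made, and higher calls became 2 for Cyp1a1, 2 for Cyp1a2, 5 for Tiparp and 1 for Ahr. In batch 1 alone the higher calls were 6 for Cyp1a1 and 5 for Tiparp. Ahr had 2 higher calls in batch 2 alone and 2 with vehicle wells of the same plate. With an absolute log2 fold change of at least 1, 33 calls were left, higher calls were 3 for Cyp1a1, 3 for Cyp1a2, 5 for Tiparp and 1 for Ahr, and 3 lower calls of Ahr were left. Leaving out each replicate gave 5 to 11 higher calls for Cyp1a1, 3 to 8 for Cyp1a2 and 2 to 4 for Ahr, with the lowest for Cyp1a1 and Cyp1a2 without replicate 3 and for Ahr without replicate 1. Directions reversed for Ahr in acetaminophen at 10000 µM with total reads only (-0.064), for Ahr in caffeine at 10000 µM in batch 2 alone (-0.023) and for Cyp1a1 in caffeine at 10000 µM in batch 2 alone (-0.36) and with vehicle wells of the same plate (-0.32). The cause was not tested. Replacing TMM by total reads moved the median of all genes by over 0.1 in 10 of 29 comparisons, from -0.41 to 0.27, so small log2 fold changes in those depend on the scaling. In the ST assay, 41 of the 50 calls it could test were made again in the same direction and 9 were not, while Cyp1b1 and Ahrr had too few reads to be tested. Of the differences between concentrations, those of Ahr in WY14643 and in indomethacin were lost with the wells of a rat added. No paired analysis was possible because the labels give single wells no numbers that pair them, but wells of a rat are matched by the batch term and by adding them. Ahrr and, outside the groups where it was high, Cyp1b1 were limited by depth.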
